A study of Homo sapiens with 2 samples.

Results

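The genes described here encode the machinery that copies chromosomal DNA, taken from a list of 46 names: origin recognition and licensing factors, the MCM helicase and the proteins that start it, the sliding clamp and its loader, single-strand binding proteins, replicative polymerases, flap processing and ligation enzymes, and nucleotide suppliers. All 46 names matched protein-coding genes, of 20037 such genes on chromosomes 1 to 22, X and Y. For each, peaks of H3K27ac (acetylation of lysine 27 of histone H3, a mark of active promoters and enhancers) were collected within 1 kb of either end of the gene record, called end peaks, and within 50 kb of either end. A gene with an end peak in the ERG and the Vector library is called shared, one with an end peak in a single library ERG-only or Vector-only, and one with none unmarked. The data are 1 ChIP-seq library per group, made from the human acute erythroid leukaemia line F36P. The ERG library came from F36P cells transduced with the retroviral construct MSCV-PIG-AM-ERG, labelled as ERG overexpression. The Vector library came from F36P cells transduced with the empty construct MSCV-PIG and labelled WT. Both cell populations were selected with 1 µg/ml puromycin for 4 days. ERG is an ETS-family transcription factor, and the study asked how it holds back erythroid differentiation. The promoter that drives ERG, the number of clones and the meaning of AM are not given in the sources used here.

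Replication starts when the origin recognition complex, with CDC6 and CDT1, loads the ring of MCM proteins on DNA in G1 phase. In S phase the CDC7-DBF4 kinase and CDC45 with the GINS proteins turn this ring into an active helicase, and primase and the polymerases follow behind it. Most of these genes are transcribed in proliferating cells under E2F transcription factors, which bind short GC-rich sites near the start of transcription and are held back by the retinoblastoma family in resting cells.

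The peak lists differed in length and in background level. The ERG library had 19671 peaks and the Vector library 9161. The authors' fold and p-value at a summit together fix the number of fragments there, which came out whole for 99.9% of the peaks in each list. The lowest background, taken as the genome-wide level, was 2.31 fragments for ERG and 1.60 for Vector, a ratio of 1.44. With 1 library per group, no difference below has a replicate check or a test. The intervals on ratios of fragments are exact 95% intervals that cover counting error only. Shares of genes are counts over a fixed list and are given without an interval. In bulk chromatin, fewer acetylated cells and less acetylation per cell cannot be told apart. The defining erythroid genes carried the mark. Of 13 erythroid markers, 8 were shared (GATA1, TAL1, KLF1 and EPOR among them), HBB and ALAS2 were ERG-only, and EPB42 and SLC4A1 were among the unmarked ones. Of the markers of other cell types, CD79A (1 of 7 lymphoid), MPO and LYZ (2 of 6 myeloid) and APOA1 and TF (2 of 4 liver) were ERG-only, and the rest, including all neuronal, fibroblast and epithelial ones, were unmarked. Covered length near these other markers also differed, with a median difference (ERG minus Vector) of 94 bp for lymphoid and 1409.5 bp for neuronal markers, against 1630 bp for the erythroid ones. The part of other cell types in the results below was not tested.

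Promoters of 8 replication genes are shown as examples. RFC1, LIG1, POLA2 and PCNA had the highest −log10 q-values among ERG-only genes. CDC45, GMNN, CDT1 and ORC2 had the most Vector-library fragments among shared genes. Each run is the 250 bases before an annotated start (the start nearest to the ERG-library summit), 5′ to 3′ on the strand of the gene, from RefSeq (build GRCh38.p14, whose chromosomes are those of hg38). Capitals mark E2F-like words (TTTCGCGC, TTTGGCGC, TTTCCCGC, TTTGCCGC or their reverse complements) and CCAAT or its reverse complement ATTGG, the word bound by the factor NF-Y. The ETS word CCGGAAG was searched too and is in none of these 8 runs. The regions are chr4:39366363-39366612, minus strand (RFC1), chr19:48170345-48170594, minus strand (LIG1), chr11:65261712-65261961, plus strand (POLA2), chr20:5126623-5126872, minus strand (PCNA), chr22:19479216-19479465, plus strand (CDC45), chr6:24774687-24774936, plus strand (GMNN), chr16:88803539-88803788, plus strand (CDT1) and chr2:200963661-200963910, minus strand (ORC2).
RFC1: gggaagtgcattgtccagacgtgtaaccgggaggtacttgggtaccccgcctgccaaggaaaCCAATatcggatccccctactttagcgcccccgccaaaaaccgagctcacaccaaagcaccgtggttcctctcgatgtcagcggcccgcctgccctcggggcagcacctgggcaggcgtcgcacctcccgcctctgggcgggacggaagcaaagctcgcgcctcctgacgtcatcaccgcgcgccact
LIG1: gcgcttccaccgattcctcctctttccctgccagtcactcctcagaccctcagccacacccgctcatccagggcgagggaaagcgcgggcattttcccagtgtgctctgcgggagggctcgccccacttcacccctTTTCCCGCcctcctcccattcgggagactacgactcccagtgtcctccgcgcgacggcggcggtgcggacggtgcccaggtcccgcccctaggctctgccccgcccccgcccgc
POLA2: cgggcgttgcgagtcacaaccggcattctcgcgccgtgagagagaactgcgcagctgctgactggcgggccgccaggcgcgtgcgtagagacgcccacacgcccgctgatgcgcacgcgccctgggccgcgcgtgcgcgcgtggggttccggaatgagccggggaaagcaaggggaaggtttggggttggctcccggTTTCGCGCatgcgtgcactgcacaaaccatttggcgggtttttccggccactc
PCNA: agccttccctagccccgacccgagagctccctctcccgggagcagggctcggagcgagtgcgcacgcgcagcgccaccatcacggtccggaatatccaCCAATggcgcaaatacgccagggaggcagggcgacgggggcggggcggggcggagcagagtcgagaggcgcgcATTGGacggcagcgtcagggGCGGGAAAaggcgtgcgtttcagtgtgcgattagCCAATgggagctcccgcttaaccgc
CDC45: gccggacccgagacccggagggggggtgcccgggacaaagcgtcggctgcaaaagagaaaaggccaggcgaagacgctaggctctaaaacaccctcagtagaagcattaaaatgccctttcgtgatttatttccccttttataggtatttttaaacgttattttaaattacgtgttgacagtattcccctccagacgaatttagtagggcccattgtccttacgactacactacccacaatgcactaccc
GMNN: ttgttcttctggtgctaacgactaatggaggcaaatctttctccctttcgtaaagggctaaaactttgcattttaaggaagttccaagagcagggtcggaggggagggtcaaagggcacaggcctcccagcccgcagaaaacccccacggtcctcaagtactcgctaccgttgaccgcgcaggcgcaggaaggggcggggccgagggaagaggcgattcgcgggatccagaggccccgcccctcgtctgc
CDT1: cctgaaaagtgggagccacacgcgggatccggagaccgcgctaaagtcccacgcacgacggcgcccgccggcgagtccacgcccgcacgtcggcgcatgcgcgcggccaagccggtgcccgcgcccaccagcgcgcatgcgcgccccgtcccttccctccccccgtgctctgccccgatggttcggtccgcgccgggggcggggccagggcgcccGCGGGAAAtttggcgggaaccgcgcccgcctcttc
ORC2: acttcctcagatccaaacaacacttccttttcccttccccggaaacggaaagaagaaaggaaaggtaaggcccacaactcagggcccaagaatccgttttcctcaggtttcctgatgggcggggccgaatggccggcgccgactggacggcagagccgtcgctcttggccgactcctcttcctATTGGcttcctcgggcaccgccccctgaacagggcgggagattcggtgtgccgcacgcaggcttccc

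E2F-like words were common in the promoters of the replication genes. Of the 40 genes with an entry in the promoter table, 20 held at least 1 such word between 250 bases before and 50 after a start, 50%, against 855 of 15843 protein-coding genes with an entry, 5.4%. The genes not in the table are MCM4, MCM5, GINS4, RPA2, RPA3 and POLD3. Both strands were searched, and 3 of the 27 E2F-like matches overlapped a GC box (GGGCGG, bound by SP and KLF factors). CCAAT was found in 23 of the 40 genes, 57.5%, against 42.1% of all genes. The GC box was found in 30, 75%, against 64.3%. The ETS word was found in 7, 17.5%, against 16.5% of all genes, and the CHR word TTTGAA, a late cell cycle element, in 2, 5%, against 15.8%. These shares describe letters in a window, not binding. Median GC content was 65% over the replication promoters and 62.3% over all promoters.

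**Figure D1:**
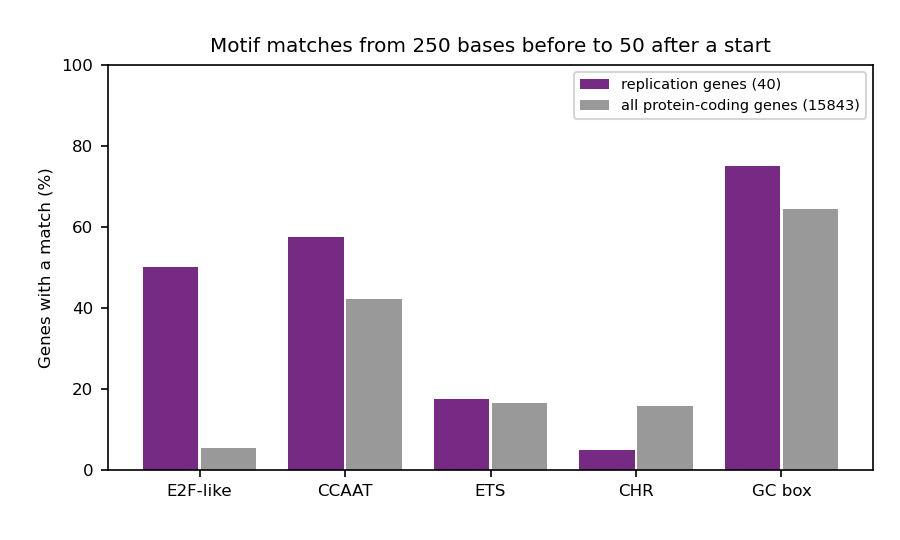
Percent of genes with at least 1 match to each word between 250 bases before and 50 bases after an annotated start, for 40 replication genes (purple, left bar of each pair) and 15843 protein-coding genes (grey, right bar). E2F-like words stand at 50% against 5.4%, whereas the ETS word stands at 17.5% against 16.5%.

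By peak status, an E2F-like word was in 8 of 14 ERG-only genes, 57.1%, in 10 of 19 shared genes, 52.6%, and in 2 of 7 unmarked genes, 28.6%. Over all protein-coding genes the shares were 6.6%, 7.82% and 3.51% in the same order. The ETS word was in 3 of 14, 3 of 19 and 1 of 7, which is 21.4%, 15.8% and 14.3%. Over all genes, 25.6%, 26.8% and 7.24% held it. GMNN and CDC45 have no marked word in the runs printed above but do at another start. The second start of GMNN has TTTGGCGC beginning at position -80, counted from that start. The other starts of CDC45 have 3 and 4 CCAAT matches.

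End peaks were found at most replication genes in the ERG library and at fewer in the Vector library. In the ERG library 38 of 46 had one, 82.6%, against 45.8% of all protein-coding genes. In the Vector library 23 of 46 had one, 50%, against 30.5%. All 23 were also among the 38, so 23 genes were shared (50%, against 30.2% of all genes), 15 ERG-only (32.6%, against 15.6%), 0 Vector-only (0.354% of all genes) and 8 unmarked (17.4%, against 53.8%). Of the 23 genes without a Vector-library end peak, the ERG library had one at 15, 65.2%, where the share over all genes was 22.5%. Read the other way, 23 of the 38 genes with an ERG-library end peak had one in the Vector library, 60.5%, and the share over all genes was 65.9%. The replication genes were thus marked more often than genes at large in both libraries. When the ERG list was shortened to as many peaks as the Vector list, 18 replication genes were shared, 8 ERG-only, 5 Vector-only and 15 unmarked. Over all protein-coding genes 26.9% were then shared, 6.15% ERG-only, 3.66% Vector-only and 63.3% unmarked.

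**Figure D2:**
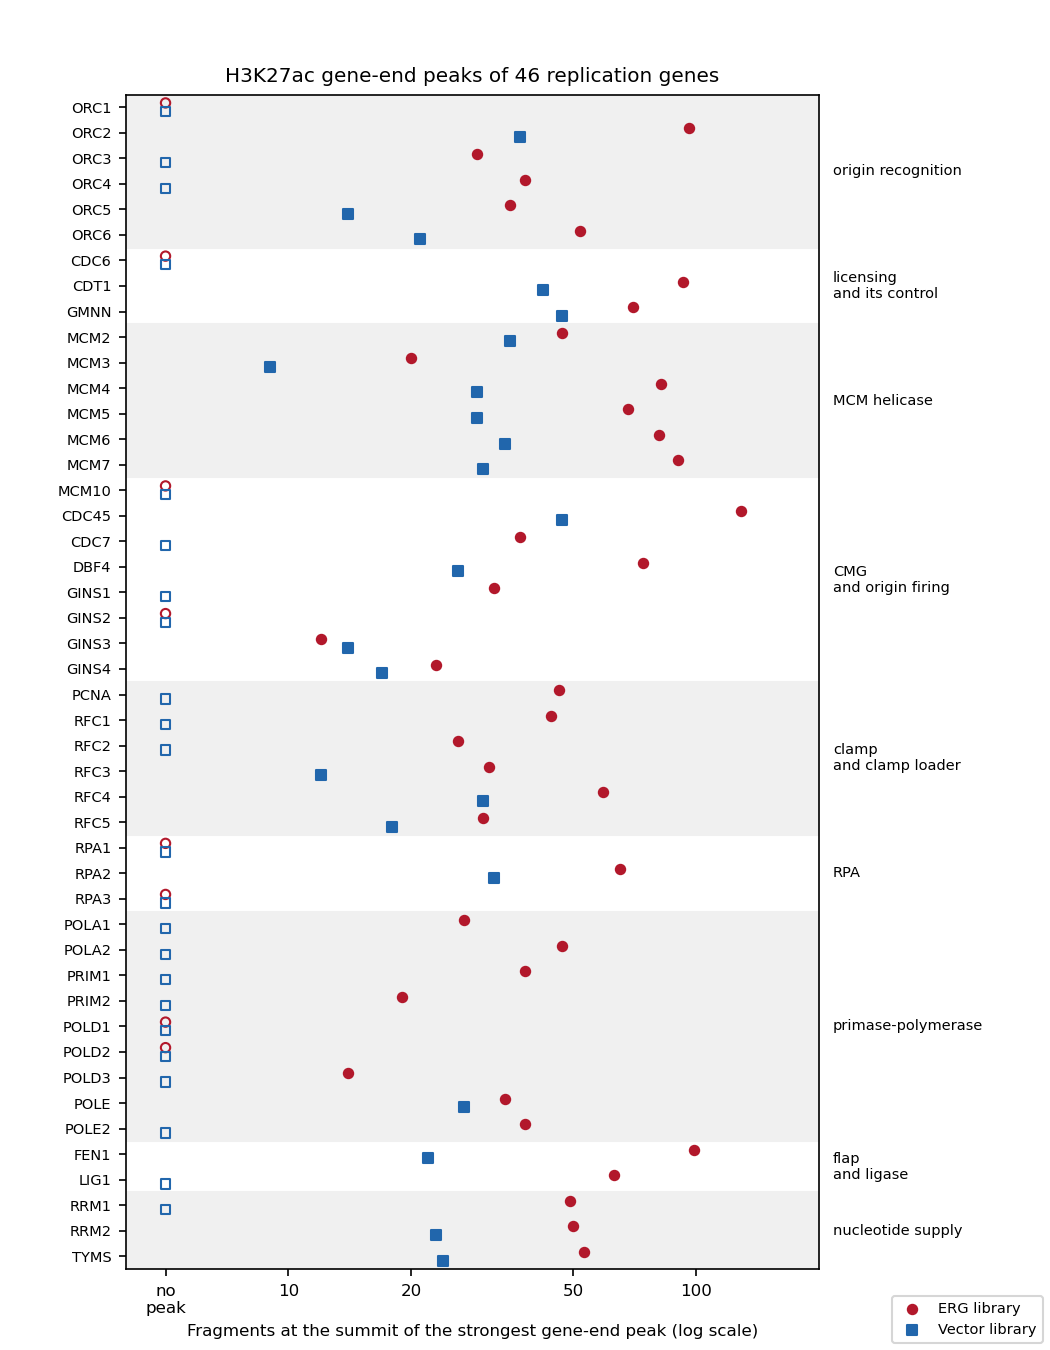
Fragments at the summit of the strongest end peak (log axis) for each of the 46 genes, grouped by role, in the ERG library (red circles, upper) and the Vector library (blue squares, lower). Open symbols at the left mark genes with no end peak in that library. All 6 MCM helicase genes have a filled symbol for both libraries, whereas 1 of 9 primase and polymerase genes has.

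The roles differed in how many genes were marked in the Vector library. MCM2 to MCM7 were all shared, as were 3 of 6 origin recognition genes, 2 of 3 licensing genes, 4 of 8 genes of helicase start, 3 of 6 clamp and clamp loader genes, 1 of 3 RPA genes, 1 of 2 flap and ligase genes and 2 of 3 nucleotide supply genes. Of the 9 primase and polymerase genes 1 was shared, 6 were ERG-only and 2 unmarked. No test of these small counts was made.

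ORC1, the largest subunit of the origin recognition complex and its ATPase, shows the limit of the gene-end rule. Its record (chromosome 1, 52372829 to 52409503) runs past its annotated start at 52404423, so it counted as having no end peak. At that start the ERG library had a peak with 114 fragments (52404064 to 52405133) and the Vector library one with 45 (52404668 to 52404986). Both lie within 1 kb of an end of PRPF38A, a splicing factor gene, so they cannot be assigned to either gene. ORC2, a core subunit, had 96 fragments at its start in the ERG library, against 37 in the Vector library, with peaks 1079 and 414 bp wide. ORC5 had 35 ERG-library and 14 Vector-library fragments, with summits 3 bp apart. ORC6, another subunit of the complex, had 1 ERG-library peak of 1371 bp with 52 fragments. In the Vector library 2 narrower peaks of 326 and 527 bp, with 21 and 19 fragments, lay over the same stretch, which also holds an end of VPS35. ORC3 and ORC4 were marked in the ERG library alone. ORC3 had 29 fragments over a background of 7.8 there, beside RARS2. ORC4 had 2 end peaks with 38 and 37 fragments over backgrounds of 12.6 and 12.2, beside MBD5. A stronger ERG-library peak, with 43 fragments over 12.6, lay inside ORC4 outside the end windows. Its summit was 1329 bp after an annotated start. All 6 ORC genes thus had a peak at an end or an annotated start in the ERG library, and 4 of them in the Vector library.

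Of the licensing genes, CDT1, which brings the MCM ring to the origin, had 93 ERG-library and 42 Vector-library fragments. Both summits lay before its start, at -377 bp (ERG) and -327 bp (Vector). Its background was the highest at any strongest end peak of the set, 32.4 fragments for ERG and 16.3 for Vector, and its fold over background was 2.81 in the ERG library, against 2.49 in the Vector library. GMNN, the inhibitor of CDT1 in S and G2 phase, had 70 ERG-library and 47 Vector-library fragments, with a fold of 6.65 in the ERG library, against 8.31 in the Vector library. GMNN had a further ERG-library peak with 27 fragments before its start, and a peak with 11 fragments beyond its far end in the Vector library alone (chromosome 6, 24786824 to 24787225). CDC6, the ATPase that works with ORC to load the MCM ring, had no end peak in either library. The nearest peak lay 2.56 kb from the gene, in the ERG library alone, with 25 fragments (chromosome 17, 40307216 to 40307803). Its promoter holds 3 CCAAT matches and the E2F-like word TTTGGCGC, at position 8 after the start.

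The MCM2 to MCM7 genes, which encode the subunits of the helicase ring, had 20 to 90 ERG-library and 9 to 35 Vector-library fragments at their summits. MCM7 had 90 ERG-library and 30 Vector-library fragments, with summits at 250 and 246 bp after the start. Its peak also lies at an end of AP4M1. MCM4 had 82 fragments in the ERG library in 1 peak of 1984 bp, and 29 and 25 in the Vector library in 2 peaks of 542 and 620 bp, on a stretch shared with PRKDC, which encodes a DNA repair kinase. MCM6 had 81 and 34 fragments in the ERG and Vector libraries. Its promoter holds 4 E2F-like words, the most in the set, as 2 pairs of TTTGGCGC overlapping GCGCGAAA. MCM5 had 68 ERG-library and 29 Vector-library fragments, and MCM2 had 47 and 35, beside TPRA1. MCM3 was the weakest of the 6, with 20 ERG-library and 9 Vector-library fragments. Its −log10 q-value in the Vector library was 1.45, and MCM3 was ERG-only when a value of at least 2 was asked for. The order of the 6 genes was not the same in both libraries: MCM7 had most fragments in the ERG library, and MCM2 in the Vector library. The highest Vector-library counts were close, with 35 at MCM2, 34 at MCM6 and 30 at MCM7, and the order was not tested.

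Among the genes that turn the loaded ring into a moving helicase, CDC45, a helicase subunit, had 129 fragments in the ERG library, the most of all 46 genes, and 47 in the Vector library, where GMNN had as many. The stretch is shared with UFD1. DBF4, the activating subunit of the CDC7 kinase, had 74 fragments in the ERG library in 1 peak of 1373 bp, and 26 and 25 in the Vector library in 2 peaks of 518 and 403 bp on either side of the start, a stretch shared with SLC25A40. CDC7 itself had 37 fragments in an ERG-library peak of 1689 bp, and the Vector library had no peak within 50 kb. So the kinase and its activator differed in status, with no test of that difference.

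The 4 GINS genes, whose products join CDC45 and MCM in the helicase, differed in status. GINS4 had 23 ERG-library and 17 Vector-library fragments. GINS3 had 12 ERG-library and 14 Vector-library fragments, the only gene of the set with fewer in the ERG library. GINS1 had 32 in the ERG library and no Vector-library peak within 50 kb. GINS2 (chromosome 16, 85676198 to 85688954) had no peak within 50 kb in either library, and neither had MCM10 (chromosome 10, 13161558 to 13211110), a factor of helicase start. A missing peak says only that the list holds none there, not that the mark is absent.

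PCNA, the sliding clamp that holds polymerases on DNA, had no end peak in the Vector library and a cluster of peaks in the ERG library. The ERG-library peaks lay on either side of its upstream start, at 5126958 to 5127783 with 46 fragments and 5126091 to 5126435 with 24 (chromosome 20), and another with 46 fragments lay at the second start inside the gene, at 5119068 to 5119954. The first pair lies within 1 kb of an end of CDS2. Within 50 kb the ERG library had 6 peaks and the Vector library 1. The Vector-library peak lay 1.44 kb from the gene, at an end of TMEM230, where an ERG-library peak lay too. With a window of 2.5 kb that peak made PCNA shared. The printed PCNA promoter holds 3 CCAAT matches and 1 E2F-like word.

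The clamp loader, which opens PCNA and closes it around DNA, had 3 shared subunit genes and 2 ERG-only ones. RFC4 had 59 ERG-library and 30 Vector-library fragments, with summits 4 bp apart. RFC3 had 31 ERG-library and 12 Vector-library fragments. A second Vector-library peak of 12 fragments lay farther into the gene, without an ERG-library counterpart. RFC5 had 30 ERG-library and 18 Vector-library fragments. RFC1, the large subunit, had 44 fragments in the ERG library over a background of 5.27, and no peak within 50 kb in the Vector library. RFC2 had 2 end peaks with 26 and 19 fragments in the ERG library, among 6 within 50 kb, and 0 within 50 kb in the Vector library. RFC1 had more ERG-library fragments than RFC3 and RFC5, which were marked in both.

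For replication protein A, which coats single-stranded DNA, the middle subunit gene RPA2 was the single one marked, with 65 ERG-library and 32 Vector-library fragments. RPA1 (chromosome 17, 1830005 to 1900082) and RPA3 (chromosome 7, 7636518 to 7718607) had no peak within 50 kb in either library. The subunits of this complex thus split into 1 gene marked in both libraries and 2 marked in neither.

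Most primase and polymerase genes were ERG-only in the lists as deposited. With the ERG list shortened to the number of Vector peaks, POLA1 and POLA2 were still ERG-only, PRIM1, PRIM2, POLD3 and POLE2 were unmarked and POLE was Vector-only. Polymerase alpha and primase make the first primer and short DNA stretch. Their genes POLA1, POLA2, PRIM1 and PRIM2 were all ERG-only. POLA2 had 47 fragments over a background of 7.11 (chromosome 11, 65261566 to 65262901), and POLA1 had 27 over 3.55 (chromosome X, 24693840 to 24694195). Neither had a Vector-library peak within 50 kb. PRIM1 had 2 ERG-library end peaks with 38 and 29 fragments, whereas the 3 Vector-library peaks within 50 kb lay at the neighbours PTGES3 and NACA. PRIM2 had an end peak with 19 fragments, beside RAB23, and a peak with 27 fragments 225 bp after an annotated start inside the record (chromosome 6, 57317638 to 57318213). PRIM2 has a pseudogene copy, PRIM2BP, on the same chromosome, so its reads are uncertain.

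Polymerase epsilon copies the leading strand. POLE, its catalytic subunit, was the single polymerase gene marked in both libraries. It had 2 ERG-library end peaks with 34 and 32 fragments on either side of the start, and 1 Vector-library peak with 27 fragments before the start. All of these lie within 1 kb of an end of PXMP2. POLE2, an accessory subunit, had 38 fragments at its start in the ERG library alone, although 4 Vector-library peaks lay within 50 kb, at the ends of neighbouring genes. Polymerase delta copies the lagging strand. POLD3 had a narrow peak of 311 bp with 14 fragments in the ERG library alone, the weakest of the 15 such genes. POLD1 had no end peak, but a peak inside the gene with 35 ERG-library and 33 Vector-library fragments (chromosome 19, 50414628 to 50416179 and 50415398 to 50415784). With a window of 2.5 kb POLD1 was shared. POLD2 (chromosome 7, 44114680 to 44124325) had no peak within 50 kb in either library.

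FEN1, the nuclease that trims the flaps of lagging-strand fragments, had 99 ERG-library and 22 Vector-library fragments, at summits 74 and 89 bp before its start, beside TMEM258. LIG1, the ligase that seals these fragments, had 63 fragments over a background of 12 in the ERG library alone, the most of the 15 genes marked there alone. Its peak lay before the start, beside ZSWIM9. LIG1 also had near it a Vector-library peak with 16 fragments, 34.9 kb away and without an ERG-library counterpart. For nucleotide supply, the large and small subunits of ribonucleotide reductase differed in status. RRM1 had 49 fragments over a background of 11.8 at its start in the ERG library alone. This peak reached within 1 kb of an end of STIM1. RRM2 had 50 fragments over a background of 15.8 in the ERG library, against 23 over 6.38 in the Vector library. TYMS, which makes thymidylate, had 53 ERG-library and 24 Vector-library fragments.

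At the 23 genes with a shared end peak, the ERG library had more fragments at 22. The ratio (ERG over Vector library) had a median of 2.22, with quartiles of 1.82 and 2.59, and the median over 6021 protein-coding genes with a shared end peak was 2.15, with quartiles of 1.81 and 2.57. The median and quartiles of the replication genes thus lay close to those of all such genes. FEN1 had the highest ratio, 4.5 (2.81 to 7.5), followed by MCM7 at 3 (1.96 to 4.7), DBF4 at 2.85 (1.8 to 4.64), MCM4 at 2.83 (1.83 to 4.48) and CDC45 at 2.74 (1.95 to 3.92). GINS3 had the lowest, 0.857 (0.362 to 2), followed by POLE at 1.26 (0.737 to 2.17), MCM2 at 1.34 (0.849 to 2.14), GINS4 at 1.35 (0.692 to 2.7) and GMNN at 1.49 (1.01 to 2.2). Of the 23 intervals, 20 held the median of all genes, 10 lay wholly above the ratio of the genome backgrounds, 13 held it and 0 lay below it. FEN1 lay above the median of all genes, and GINS3 and MCM2 below it, by their counting intervals, which take no account of the number of genes compared.

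**Figure D3:**
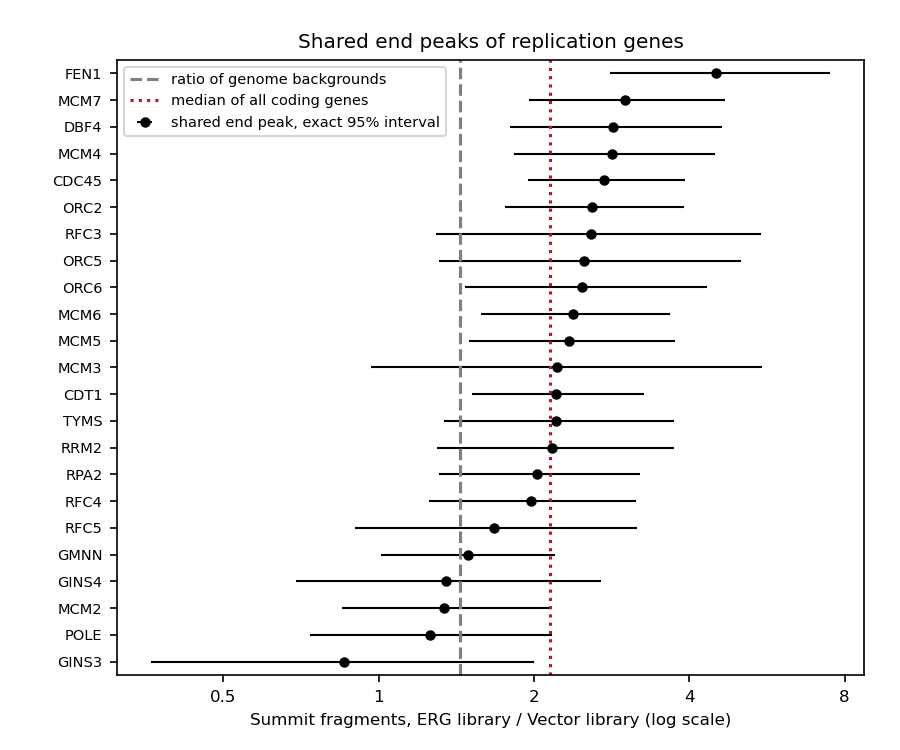
Ratio of summit fragments (ERG over Vector library, log axis) at the shared end peak of 23 replication genes, ordered from highest to lowest. Points are ratios and bars exact 95% intervals of counting error. The dashed line is the ratio of genome backgrounds (1.44) and the dotted line the median over all protein-coding genes (2.15). Most points lie close to the dotted line, with FEN1 at 4.5 and GINS3 at 0.857 at the extremes.

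Shared end peaks were wider in the ERG library at 22 of the 23 genes, with POLE the exception at 305 against 493 bp. Their median width was 941 bp for ERG and 490 bp for Vector. Over all protein-coding genes the medians were 1033 and 579 bp, and 95.2% of the shared peaks were wider in the ERG library. Summits of the 2 libraries lay within 150 bp of each other at 19 of the 23 genes, with a median distance of 54 bp. The distances of 763 bp at ORC6 and 800 bp at MCM4 came from single ERG-library peaks that spanned 2 Vector-library peaks.

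Peak summits sat mainly just after the start of transcription. Of the 34 replication genes with an ERG-library peak within 1 kb of an annotated start, 24 had the summit of the strongest one after the start, 70.6%, against 68.9% of all protein-coding genes. The median position was 132 bp after the start, and 167 bp over all genes. In the Vector library 12 of 20 summits lay after the start, 60%, against 72.6% of all genes, at a median of 186 bp. The summits of ORC1, ORC6, CDT1, CDC45, RFC4, POLE, FEN1 and RRM2 lay before the start in both libraries, those of PCNA and LIG1 in the ERG library alone. Of these 10 genes, all but CDT1, RFC4 and RRM2 share the stretch with an end of another coding gene.

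**Figure D4:**
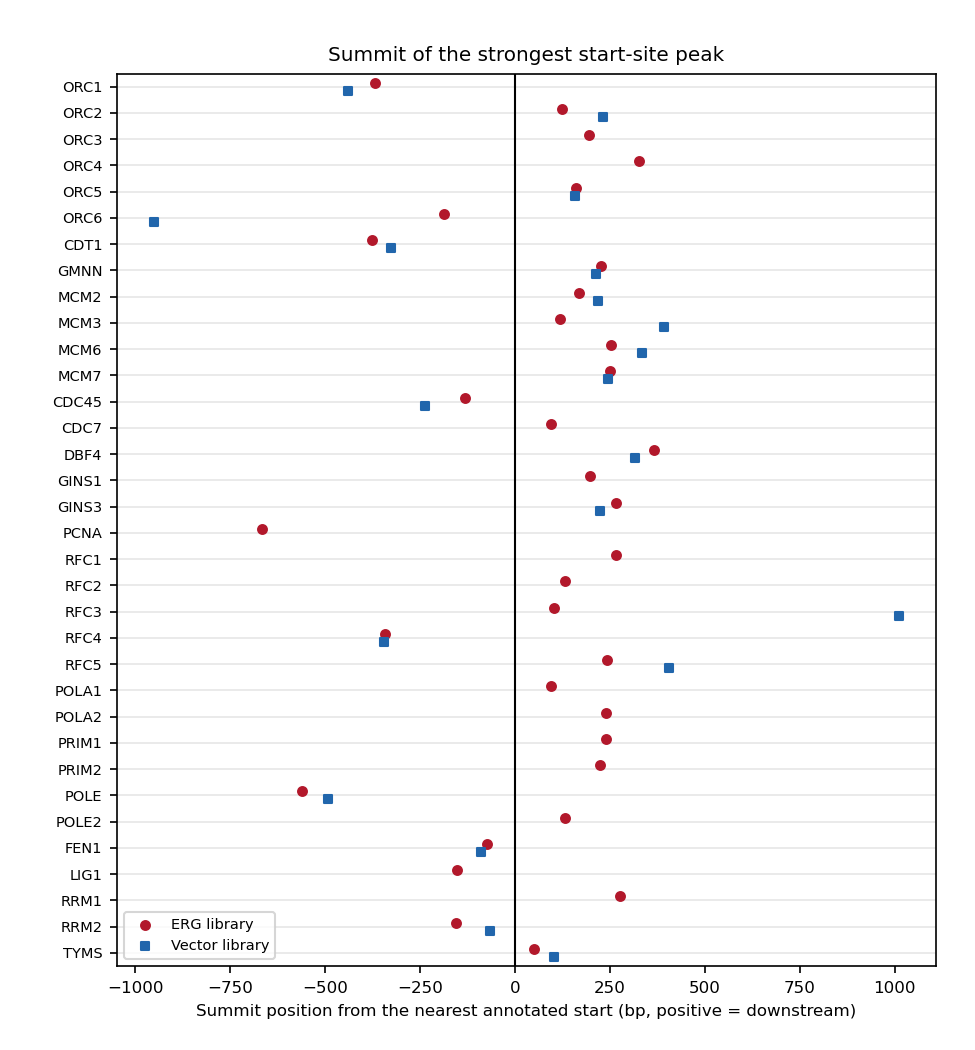
Position of the summit of the strongest peak within 1 kb of an annotated start, in bp from the nearest start (positive after the start), for the ERG library (red circles, upper) and the Vector library (blue squares, lower). Most symbols lie between 50 and 500 bp after the start, and the Vector-library summits of ORC6 (-950 bp) and RFC3 (1011 bp) lie farthest out.

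The ERG-only genes had fewer ERG-library fragments at the median than the shared genes. Their strongest end peak had a median of 38 fragments (14 to 63), against 59 (12 to 129) for the 23 genes marked in both. Of the 23 shared genes, 11 had more ERG-library fragments than any ERG-only gene, and the other shared genes lay within or below the range of the ERG-only genes. Over all protein-coding genes the medians were 30 and 64. To see whether such peaks could pass the lowest −log10 p-value of the Vector list, 3.98, their fragments and background were divided by 1.44. All 15 still passed, and 96.5% of the 3131 ERG-only protein-coding genes did. These genes were picked for an ERG-library peak, and no Vector-library value at them enters this scaling. Passing therefore does not show what the Vector library held there. The fragments were instead divided by 2.22, the median ratio at shared peaks of the replication genes, and the background by 1.44. Of the 15 genes 10 then passed, against 50% of all ERG-only genes. The scaled −log10 p-value was highest at RFC1 (9.41), POLA2 (7.86), LIG1 (7.75), GINS1 (5.7) and POLA1 (5.69). This order ranks the genes by their ERG-library signal only. ORC3, ORC4, RFC2, PRIM1 and POLD3 did not pass, with 1.97 to 3.41. This second scaling was added after the values were seen. It too takes no Vector-library value at the ERG-only genes.

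Within 50 kb, 41 of the 46 genes had a greater length covered by peaks in the ERG library, 0 had a greater length in the Vector library, and 5 (MCM10, GINS2, RPA1, RPA3 and POLD2) had no peak in either. Over all protein-coding genes 72.4% had more in the ERG library. The median covered length was 1663.5 bp for ERG and 624 bp for Vector, and the median difference was 1070.5 bp, against 776 bp for all protein-coding genes. Among genes marked in both libraries, however, the median difference was 1145 bp for replication genes and 1295 bp for all genes. For genes marked in the ERG library alone it was 1178 and 1636 bp. The median of the replication genes was thus lower than that of all genes within each of these statuses.

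**Figure D5:**
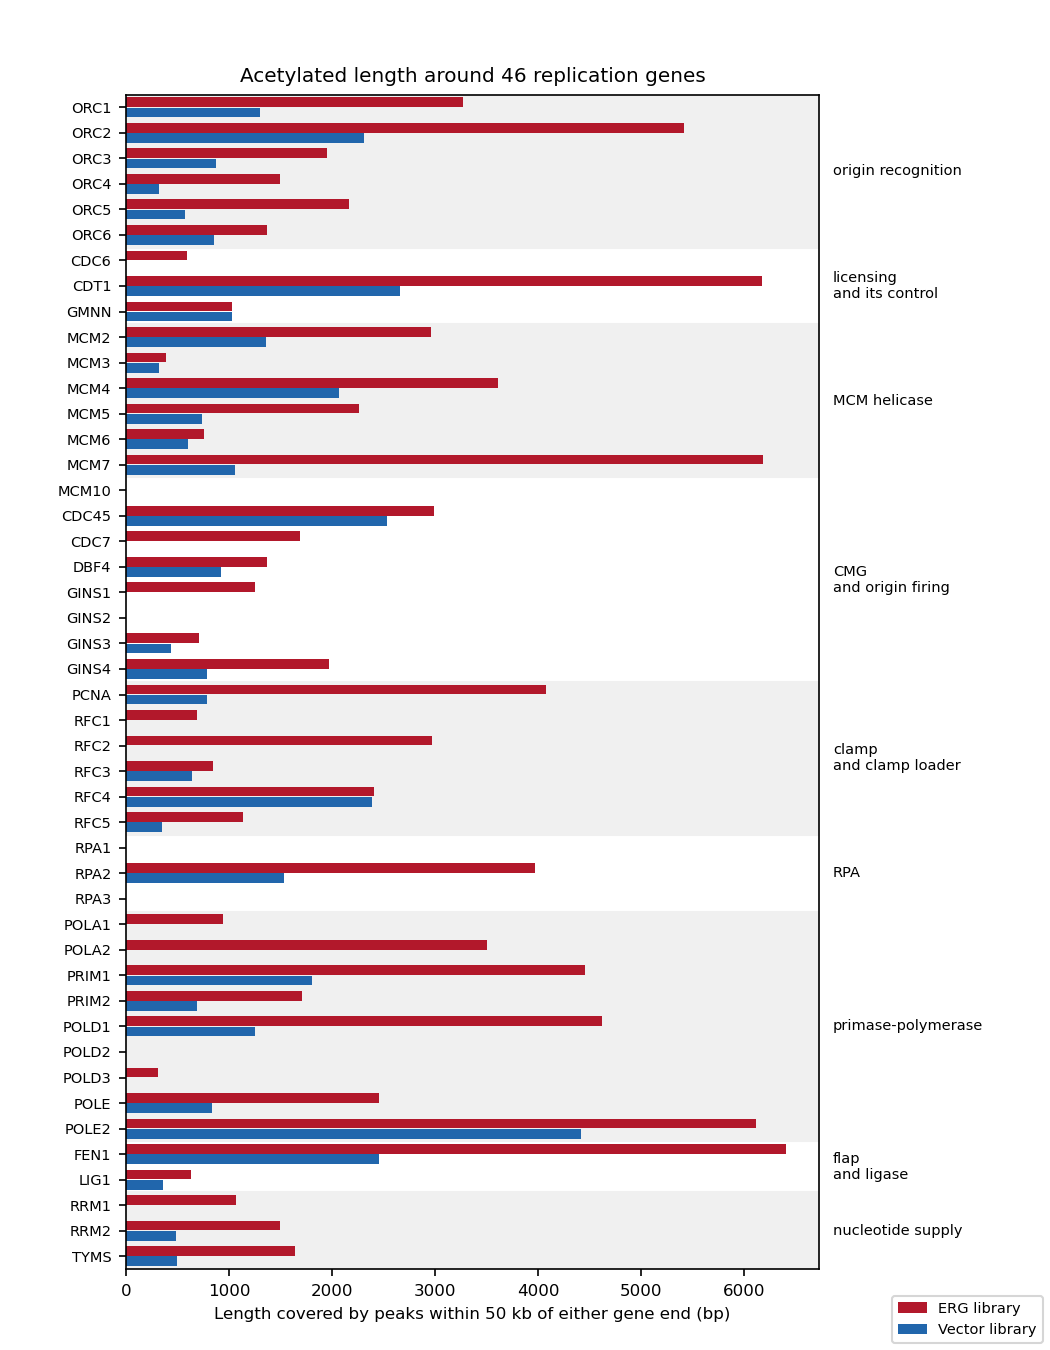
Length in bp covered by peaks within 50 kb of either end of each gene, grouped by role, in the ERG library (red bars, upper) and the Vector library (blue bars, lower). Bars are equal or longer for the ERG library at every gene, and 5 genes have no bar in either library.

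The largest differences among genes marked in both libraries were at MCM7 (6186 bp in the ERG library against 1056 bp in the Vector library), FEN1 (6407 against 2452 bp), CDT1 (6173 against 2662 bp), ORC2 (5414 against 2306 bp) and RPA2 (3968 against 1536 bp). All 7 ERG-library peaks around MCM7 lay within 1 kb of an end of another coding gene, among them ZNF3, CNPY4 and TAF6. GMNN had 1030 bp (ERG) and 1029 bp (Vector), and RFC4 had 2403 and 2387 bp. Around the 46 genes the 50 kb windows held 116 ERG-library peaks and 70 Vector-library peaks. At the members' own ends lay 44 ERG-library and 28 Vector-library peaks, and at the ends of other coding genes 40 and 31. Away from such ends lay 5 and 2 peaks inside a replication gene and 27 and 9 elsewhere. No Vector-library peak overlapped 21 of the 44 ERG-library peaks at own ends, 13 of the 40 at ends of other coding genes, 4 of the 5 inside a gene and 21 of the 27 elsewhere. These are 59 of 116 peaks, 50.9%, against 58.9% of all ERG-library peaks. Also, 17 of the 44 lay within 1 kb of an end of another coding gene, at 14 genes. Of the 70 Vector-library peaks 6 had no ERG-library counterpart, 8.57%, against 8.97% of all Vector-library peaks, at CDT1 (2), ORC4, GMNN, RFC3 and LIG1.

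The other genes of the pathway were counted as 2 lists. Over all protein-coding genes 30.2% were shared, 15.6% ERG-only, 0.354% Vector-only and 53.8% unmarked. Of 37 further replication factors, 20 were shared (54.1%), 12 ERG-only (32.4%), 0 Vector-only and 5 unmarked. The ERG-only genes included the fork protection gene TIMELESS (30 fragments in the ERG library), WDHD1 (42), TOPBP1 (42), the histone chaperone gene ASF1B (44), CHTF18 (25), ATAD5 (20), the polymerase subunit genes POLD4 (43) and POLE4 (18), the nuclease gene DNA2 (21), LRWD1 (29) and MCM8 (32). The Vector library had no end peak at any of them. Of 19 genes of the E2F and retinoblastoma regulators, 12 were shared (63.2%) and 3 unmarked, and E2F1 (25 fragments), E2F4 (35) and E2F8 (16) were ERG-only (15.8%, against 15.6% of all protein-coding genes). MYBL2, a transcription factor of the late cell cycle, was the single Vector-only gene of these lists, with 0 bp covered within 50 kb in the ERG library, against 341 bp and an end peak of 23 fragments in the Vector library.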

How the data were processed

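H3K27ac ChIP-seq was done on 1 ERG library and 1 Vector library. Bowtie2, MACS2, deepTools and the build hg38 are listed, without versions, per the submitters' processing notes; input use and duplicate handling are not given in the sources used here. Per the labels' protocols, chromatin was fixed with 1% formaldehyde and cut with micrococcal nuclease. Each deposited list gives, per peak and as the authors' values, a score, a fold ratio over the local background, a −log10 p-value, a −log10 q-value and a summit position. Peaks were called per library.

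Summit fragments were recovered as the whole number N for which (N + 1) / (background + 1) equals the deposited fold ratio and the Poisson tail equals the deposited −log10 p-value, with a relative tolerance of 0.0001. The inversion was checked on fold ratios and p-values recomputed from recovered peaks with the same formulas. That check does not test the formulas themselves. The calculation assumes these MACS2 formulas.

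Genes came from the RefSeq table of GRCh38.p14, without exons, so exon and intron positions are not given. Start sites and strand came from the RefSeq promoter table. A peak counted with an overlap of at least 1 bp. No test between groups was made, as each had 1 library. Peaks off chromosomes 1 to 22, X and Y (698 ERG-library and 221 Vector-library peaks) were not used at genes. They are part of the peak totals, the share with whole fragments and the genome backgrounds. The shares of all peaks without a counterpart in the other library include them too. All members were described by status. Full values were given for genes not marked in both libraries, the 5 highest and 5 lowest ratios, the 5 largest differences in covered length, and the 2 strongest genes per role. Some genes of the comparison lists are counted but not reported by name here. Members and lists were chosen with earlier results of these data known. Alternatives were other windows, a stricter q-value, a shortened list, scaling by the ratio of genome backgrounds and start sites alone. Python 3.11.15, pandas 2.3.3 and scipy 1.17.1 were used.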

Additional observations from a re-analysis of the deposited data

How the results depend on the processing

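The counts of 23 shared and 15 ERG-only genes stayed within 1.5 times under windows of 500 bp and 2.5 kb, a −log10 q-value of at least 2, scaling to the Vector background and start sites alone. With only as many ERG-library peaks as the Vector library has, which removes the weakest ERG-library peaks, 18 genes were shared, 8 ERG-only, 5 Vector-only (MCM3, GINS3, GINS4, POLE and RRM2) and 15 unmarked (26.9%, 6.15%, 3.66% and 63.3% of all protein-coding genes). Of the other replication and E2F-RB genes 7 were then ERG-only, and the median difference in covered length was 346 bp (161 bp over all genes). With 10 kb in place of 50 kb that difference was 608 bp (204 bp over all genes). With ERG-library fragments divided by 2.22, an alternative added after the data were seen, 19 genes were shared, 10 ERG-only, 4 Vector-only and 13 unmarked (27.9%, 7.81%, 2.68% and 61.6% of all genes). The median ratio of 2.22 ran from 2.17 to 2.28. No paired analysis was possible because each group holds 1 library, and no replicate could be left out. Peaks with few fragments limit the lowest members, MCM3 and GINS3 among them.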
